A study of Brachypodium distachyon with 8 samples.

Results

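Methyl jasmonate (MeJA) lowered 35 genes in the leaves of *Brachypodium distachyon* in both genotypes of the experiment, and these genes are described here. They are 35 of the 14922 genes with a mean of at least 1 FPKM (sequenced fragments relative to transcript length and to library depth) over the 8 libraries, and of 27830 gene identifiers in all. A gene was a member if, within each genotype, its mean in the 2 mock-treated libraries was at least 2 times its mean in the 2 MeJA-treated libraries, and both mock values lay above both MeJA values. The members were thus chosen by their MeJA and mock levels, and the fall with MeJA is given as a description, without a test.

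The sequencing methods describe leaves of 4-wk-old plants, with each sample pooled from 12 plants. The inbred line was Bd21-3, with 2 samples per genotype and treatment. The 4 groups are wild type with mock treatment (samples 1 and 2), wild type with MeJA (samples 3 and 4), MTL-OX with mock treatment (samples 5 and 6) and MTL-OX with MeJA (samples 7 and 8). MTL-OX is the label of the plants that overexpress the microProtein LITTLE NINJA (*LNJ*), and neither the labels nor the methods say which transgenic line was sequenced. Treated plants were sprayed with 100 μM MeJA in 0.15% Tween and mock-treated plants with the Tween solution alone. For RNA analysis by qRT-PCR the methods give 5 applications at intervals of 3 d and a harvest 30 min after the last, and elsewhere they describe 3 applications at intervals of 2 d. In both descriptions the spraying began at 4 wk, so the age at harvest is not clear. The sequencing methods name neither regime.

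Jasmonic acid is a plant hormone of defense and growth restraint. Without it, JAZ repressors hold transcription factors of the MYC type inactive through the adaptor NINJA and the corepressor TOPLESS. The hormone makes the receptor COI1 mark JAZ proteins for degradation, which releases the transcription factors, while many growth-related genes are known to fall in leaves exposed to jasmonate. The question of the comparison is which transcripts fell irrespective of the genotype, and whether their level differed between the genotypes. The deposited tables give no gene name to any of the 35 members, and 0 of them matched an identifier of the RefSeq gene table of Brachypodium_distachyon_v3.0. The members are therefore named by their BRADI identifiers, without a role, and coordinates are those of the tables, counted from 1, in an assembly that the sources used here do not name.

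The labels and the *LNJ* transcript disagree about the genotype. *LNJ* (BRADI1G69970) had 581 to 762 FPKM in the 4 libraries labelled wild type, and among those labelled MTL-OX it was listed at 0 in samples 5, 6 and 7 and had 0.834 FPKM in sample 8. The names of the deposited tables also give each sample the other genotype. The rule treats the genotypes alike, so the members are the same under either reading, but every difference between genotypes below is given as labelled and has the opposite sign under the table names. The libraries held 13452995 to 15821699 fragments as implied by the confidence bounds, with 19514 to 19959 genes above 0. The factors that bring the libraries to a common median ranged from 0.850 to 1.11, and the lowest was that of sample 5, a mock-treated library labelled MTL-OX.

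MeJA lowered 175 genes by this rule in the libraries labelled wild type (1.17% of the tested genes) and 135 in those labelled MTL-OX (0.905%), and the 35 on both lists are 20% and 25.9% of them. The same rule in both genotypes took 0.235% of the tested genes. Leaf RNA is a mixture, so fewer cells of a type and less RNA per cell cannot be told apart. The members ranged from 1.07 to 219.7 FPKM in their mean over the 8 libraries, with a median of 3.82 FPKM against 8.23 FPKM for all tested genes. Of them 8 had a mean of at least 20 FPKM, 7 lay between 5 and 20 FPKM, and 20 lay below 5 FPKM. Their loci had a median length of 1967 bp against 3316 bp for all tested genes.

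**Figure D1:**
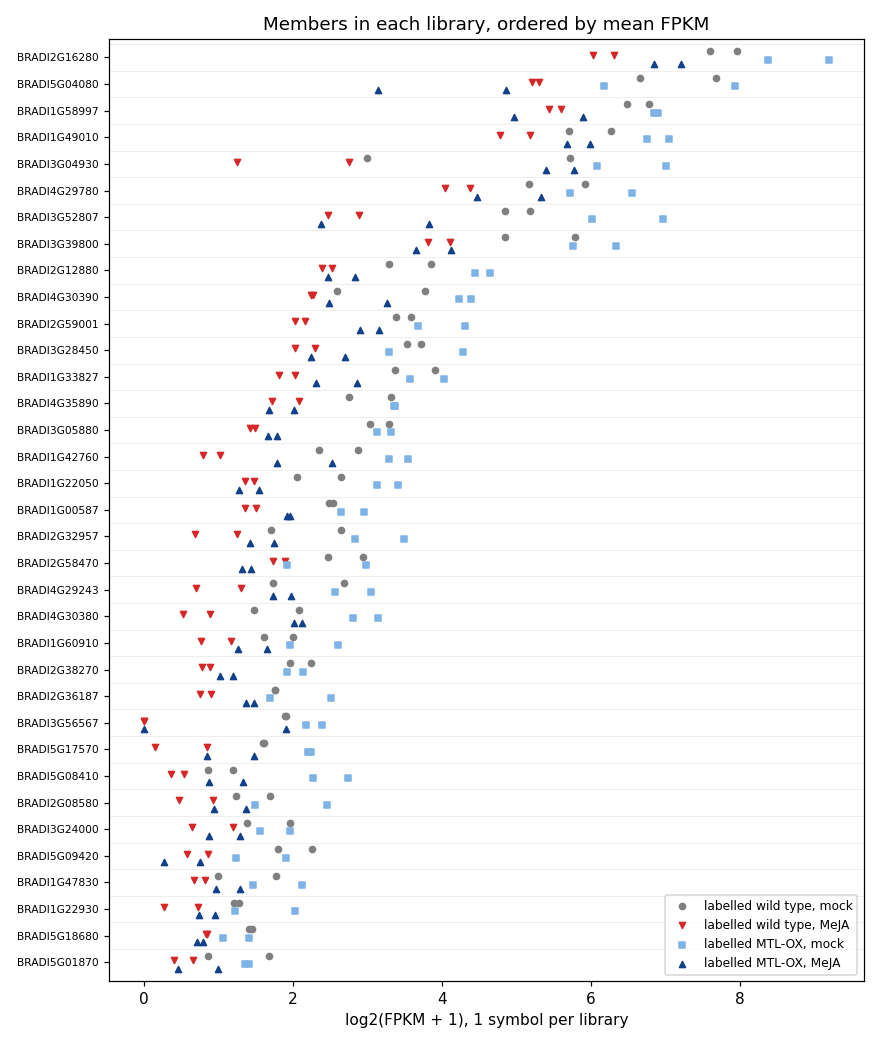
The level of each of the 35 members in each of the 8 libraries, as log2(FPKM + 1), with members ordered by their mean FPKM and 1 symbol per library. Within each labelled genotype the MeJA symbols lie to the left of the mock symbols, as the rule requires, and the blue mock squares (labelled MTL-OX) often lie to the right of the gray mock circles (labelled wild type).

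BRADI2G16280, on chromosome 2 from 14369033 to 14369368, had the highest mean. It had 192 and 248 FPKM in samples 1 and 2, 78.3 and 64.3 FPKM after MeJA in samples 3 and 4, 584 and 329 FPKM in samples 5 and 6, and 147 and 114 FPKM after MeJA in samples 7 and 8. The treatments did not overlap in either labelled genotype, but the locus is only 336 bp long, and the values rest on 7 to 35 implied fragments per library. BRADI5G04080, on chromosome 5 from 5280161 to 5281538, had 202 and 99.7 FPKM in samples 1 and 2 and 38.3 and 36.0 FPKM in samples 3 and 4. In samples 5 and 6 it had 71.4 and 242 FPKM, and in the MeJA-treated samples 7 and 8 it had 27.9 and 7.79 FPKM. The mock-treated replicates of this gene differed by more than 2-fold in both labelled genotypes, and in opposite order to most members in samples 5 and 6.

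BRADI1G58997, on chromosome 1 from 58108942 to 58111054, had 109 and 88.7 FPKM in samples 1 and 2 and 118 and 114 FPKM in samples 5 and 6. After MeJA it had 42.4 and 47.5 FPKM where the label was wild type and 58.2 and 30.3 FPKM where it was MTL-OX. The mock levels of the labelled genotypes thus differed by 1.18-fold, less than the fall with MeJA in either. BRADI1G49010, on chromosome 1 from 47737897 to 47740009, had 50.9 and 75.9 FPKM in samples 1 and 2, 26.5 and 35.2 FPKM in samples 3 and 4, 132 and 107 FPKM in samples 5 and 6, and 62.5 and 50.4 FPKM in samples 7 and 8. Its MeJA levels where the label was MTL-OX overlapped its mock levels where it was wild type.

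BRADI3G04930, on chromosome 3 from 3390579 to 3392130, had the largest difference between replicates of all members. It had 6.98 and 51.8 FPKM in samples 1 and 2 and 1.39 and 5.74 FPKM in samples 3 and 4. Samples 5 and 6 had 128 and 66.4 FPKM, and samples 7 and 8 had 53.8 and 41.0 FPKM. Sample 1 differed from sample 2 by 7.42-fold, so the fall of 8.25-fold where the label was wild type rests on sample 2. Without sample 2 the mock value is 6.98 FPKM, close to the 5.74 FPKM of sample 4. In the libraries labelled MTL-OX this gene fell by 2.05-fold, just past the limit of the rule.

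BRADI4G29780, on chromosome 4 from 35418396 to 35420747, had 34.8 and 59.5 FPKM in samples 1 and 2, 15.4 and 19.8 FPKM in samples 3 and 4, 92.2 and 51.4 FPKM in samples 5 and 6, and 39.2 and 21.1 FPKM in samples 7 and 8. BRADI3G52807, on chromosome 3 from 53651891 to 53654086, had the largest fall of all members in the libraries labelled MTL-OX. There it went from 123 and 63.4 FPKM to 13.2 and 4.20 FPKM (10.7-fold). Where the label was wild type it went from 27.7 and 35.1 to 6.40 and 4.54 FPKM (5.74-fold). The labelled genotypes were far apart after mock treatment and overlapped after MeJA. BRADI3G39800, on chromosome 3 from 42026895 to 42029422, also started higher where the label was MTL-OX in the mean, with 79.6 and 52.9 against 54.3 and 27.8 FPKM. It ended at 11.6 and 16.4 FPKM where the label was MTL-OX and at 13.0 and 16.2 FPKM where it was wild type, so its levels after MeJA overlapped as well.

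The 7 members between 5 and 20 FPKM rest on 38 to 1097 implied fragments per library. BRADI2G12880 (chromosome 2, 11238872 to 11244833) fell from 13.4 and 8.81 to 4.25 and 4.74 FPKM where the label was wild type and from 23.9 and 20.7 to 4.55 and 6.13 FPKM where it was MTL-OX. Like BRADI3G52807, it was higher in the mock-treated libraries labelled MTL-OX without overlap, and the MeJA levels of the labelled genotypes overlapped. BRADI3G28450 (chromosome 3, 29787052 to 29792215) fell from 12.2 and 10.6 to 3.91 and 3.07 FPKM and from 8.80 and 18.5 to 3.76 and 5.47 FPKM. BRADI1G33827 (chromosome 1, 29397987 to 29399174) fell from 14.0 and 9.34 to 3.07 and 2.52 FPKM and from 15.3 and 10.9 to 3.98 and 6.25 FPKM. These genes had mock levels that overlapped between the labelled genotypes. BRADI2G59001 (chromosome 2, 56762627 to 56764331) fell from 9.45 and 10.99 to 3.46 and 3.08 FPKM and from 18.9 and 11.8 to 6.46 and 7.90 FPKM, with both levels higher where the label was MTL-OX.

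BRADI4G35890 (chromosome 4, 41177958 to 41179985) fell from 8.96 and 5.74 to 3.23 and 2.31 FPKM where the label was wild type and from 9.39 and 9.25 to 3.06 and 2.21 FPKM where it was MTL-OX. BRADI3G05880 (chromosome 3, 4178779 to 4184487) lay between 7.21 and 9.01 FPKM in the 4 mock-treated libraries and between 1.68 and 2.44 FPKM in the 4 MeJA-treated ones. Its spread within a treatment was small in comparison with the gap between the treatments. BRADI4G30390 fell from 12.7 and 5.06 to 3.72 and 3.81 FPKM where the label was wild type and from 17.8 and 20.01 to 4.61 and 8.57 FPKM where it was MTL-OX.

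BRADI4G30390 and BRADI4G30380 are the only members that lie side by side among the tested genes. They are on chromosome 4 from 36162360 to 36164025 and from 36144580 to 36146323, with 16036 bp and 0 listed genes between them. BRADI4G30380 had 3.22 and 1.79 FPKM in samples 1 and 2, 0.444 and 0.854 FPKM in samples 3 and 4, 7.83 and 6.03 FPKM in samples 5 and 6, and 3.37 and 3.05 FPKM in samples 7 and 8. Both genes of the pair were higher where the label was MTL-OX, with and without MeJA.

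The 20 members below 5 FPKM were more often limited by depth. BRADI1G42760 had 6.30 and 4.11 FPKM in samples 1 and 2 against 0.739 and 1.03 FPKM in samples 3 and 4, the largest fall among them where the label was wild type and the MeJA level was above 0 (5.88-fold), and 10.7 and 8.77 against 2.46 and 4.77 FPKM where it was MTL-OX. BRADI1G22050 went from 5.27 and 3.17 to 1.78 and 1.58 FPKM where the label was wild type and from 9.60 and 7.78 to 1.43 and 1.94 FPKM where it was MTL-OX, where it had the largest fall among these 20 (5.17-fold). BRADI5G09420 fell by 4.72-fold and 4.57-fold, from 2.48 and 3.77 to 0.496 and 0.828 FPKM and from 1.36 and 2.77 to 0.697 and 0.206 FPKM. It was 1 of the few members with a lower mean where the label was MTL-OX. BRADI1G00587 lay between 4.58 and 6.79 FPKM in the mock-treated libraries and between 1.57 and 2.90 FPKM in the MeJA-treated ones. Its MeJA levels were higher where the label was MTL-OX (2.78 and 2.90 against 1.57 and 1.85 FPKM), without overlap.

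BRADI2G32957, BRADI4G29243 and BRADI2G38270 fell by 3.77-fold, 3.68-fold and 4.20-fold where the label was wild type, and by 4.05-fold, 2.31-fold and 2.65-fold where it was MTL-OX. BRADI2G58470 fell by 2.22-fold and 3.02-fold, and its sample 5 had 2.78 FPKM against 6.92 FPKM in sample 6. BRADI5G17570 and BRADI5G08410 fell by 4.47-fold and 2.86-fold where the label was wild type and by 2.82-fold and 4.06-fold where it was MTL-OX. They rest on as few as 1 and 2 implied fragments in a library, so the size of these falls is loosely fixed. The remaining low members were BRADI1G60910, BRADI2G36187, BRADI2G08580, BRADI3G24000, BRADI1G47830, BRADI1G22930, BRADI5G18680 and BRADI5G01870, with means of 1.07 to 2.32 FPKM. They fell by 2.14-fold to 3.34-fold and by 2.01-fold to 2.76-fold in the libraries labelled wild type and MTL-OX.

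BRADI3G56567 stands apart. It had 2.72 and 2.76 FPKM in samples 1 and 2 and was listed at 0 in samples 3 and 4, so no fold is given there. Samples 5 and 6 had 4.25 and 3.54 FPKM, sample 7 had 2.75 FPKM, and sample 8 was again listed at 0. The change from 62 implied fragments in sample 7 to none in sample 8 is abrupt. It is the 1 member whose locus, on chromosome 3 from 56413717 to 56417619, overlaps that of another listed gene, BRADI3G56560, and a part of the overlap in the listing at 0 was not tested.

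The fragments behind the members set how far each separation can be read. Of the 35 members, 17 had at least 30 implied fragments in every library, 7 had at least 100, and 11 had fewer than 10 in at least 1 library. The confidence bounds of both mock-treated libraries lay above those of both MeJA-treated libraries for 20 members where the label was wild type (2.11% of all tested genes) and for 23 where it was MTL-OX (1.77%). For 19 members this held in both labelled genotypes (0.59% of all tested genes), and for the other 16 the bounds met in at least 1 genotype. Such bounds describe 1 library and do not hold the spread between plants.

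**Figure D2:**
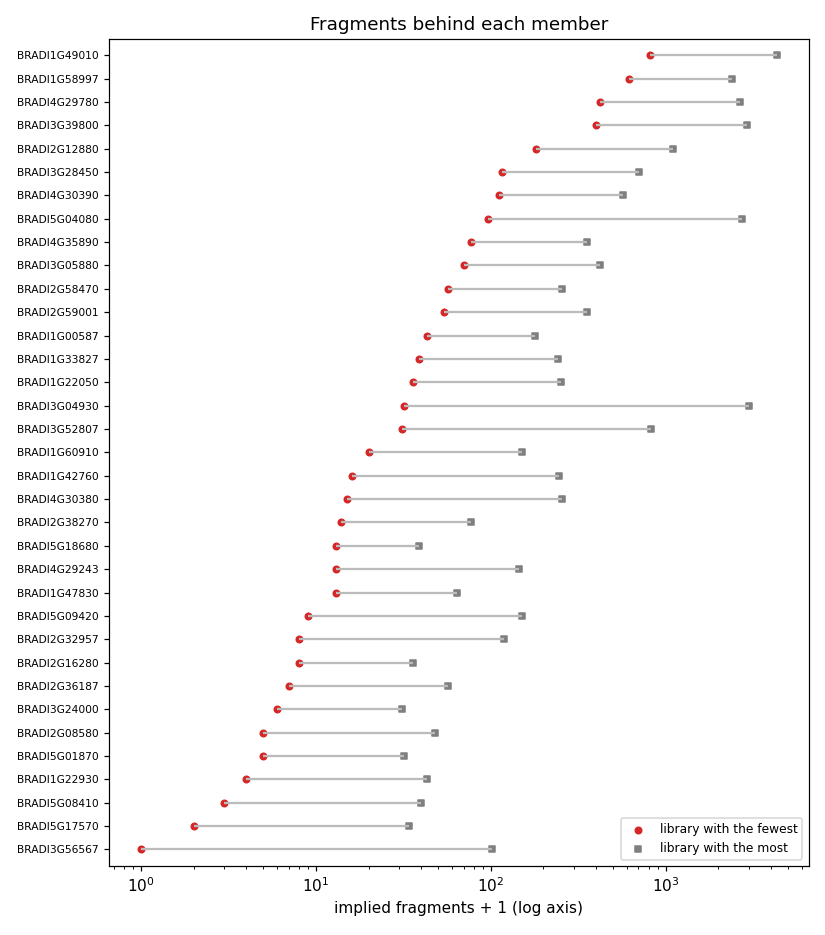
Implied fragments of each member in the library with the fewest and in the library with the most, on a log axis after adding 1. The counts run from 818 to 4322 for BRADI1G49010 down to 0 to 101 for BRADI3G56567, and 11 members have fewer than 10 fragments in at least 1 library.

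Replicates differed more for the median member than for the median tested gene. The median absolute difference between the 2 replicates of a group, on the log2(FPKM + 1) scale, was 0.47 for the members in mock-treated libraries labelled wild type against 0.20 for all tested genes. It was 0.26 against 0.13 in the MeJA-treated ones. In the libraries labelled MTL-OX it was 0.46 against 0.25 after mock treatment and 0.38 against 0.23 after MeJA. Sample 5 was above sample 6 for 24 of the 35 members (40.1% of all tested genes) and sample 7 above sample 8 for 23 (37.8%). Sample 3 was above sample 4 for 10 members (45.5%), and sample 1 above sample 2 for 20 (50.0%). These are descriptions over genes that share their libraries.

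As a ratio of mean FPKM, the fall was larger where the label was wild type for 21 members and where it was MTL-OX for 13, with no ratio for BRADI3G56567. Once FPKM were scaled by median ratios these numbers were 16 and 18, so neither label has the larger falls under both scalings. Where the label was wild type the median member fell by 3.08-fold (34 members with a MeJA level above 0), from 2.06-fold to 8.25-fold. Where it was MTL-OX the median was 2.69-fold over 35 members, from 2.01-fold to 10.7-fold. At least 3-fold falls were found for 18 and 12 members, and 6 members fell by at least 3-fold in both. These 6 were BRADI2G16280, BRADI2G32957, BRADI3G05880, BRADI3G52807, BRADI5G04080 and BRADI5G09420. Of them, BRADI2G16280, BRADI2G32957 and BRADI5G09420 rest on as few as 7, 7 and 8 implied fragments in a library, so the size of their falls is loosely fixed.

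The difference between the MeJA responses was tested as an interaction with limma on log2(FPKM + 1) over all tested genes, with Benjamini-Hochberg adjustment, and a call needed a 2-fold difference with an adjusted p at or under 0.05. No member passed (0 of 35), and the smallest adjusted p among them was 0.76. Among all tested genes 2 (0.0134%) passed with a positive and 0 (0.0%) with a negative difference. An unadjusted p below 0.05 was found for 2 members, BRADI1G22050 and BRADI2G12880, which fell further where the label was MTL-OX, with log2 differences of −0.92 (SE 0.32) and −0.77 (SE 0.31). Over all tested genes, 125 (0.838%) had such a p with a negative and 821 (5.5%) with a positive difference. The rule required a fall in both genotypes, which limits the range of this difference. The sign of this difference, taken between means of log2(FPKM + 1) and not as a ratio of FPKM, was positive for 19 of the 35 members in unscaled FPKM (70.8% of all tested genes) and, once FPKM were scaled by median ratios, for 11, so no common direction is given.

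**Figure D3:**
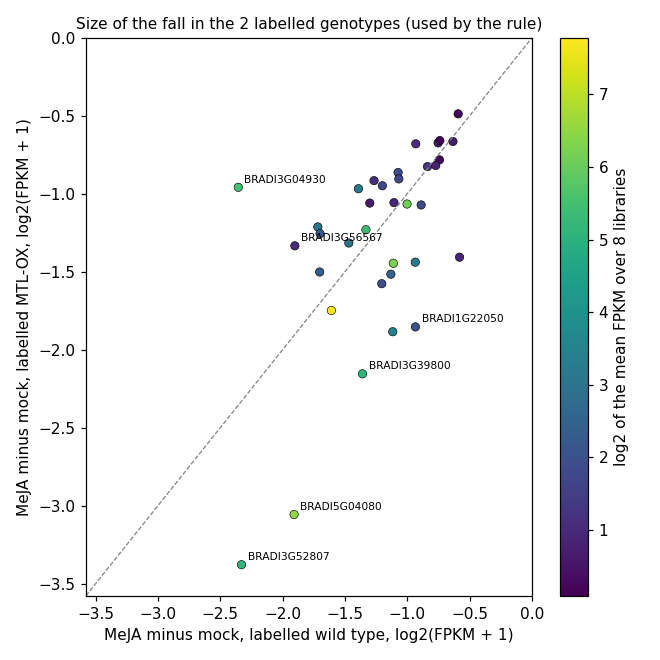
MeJA minus mock on the log2(FPKM + 1) scale in the libraries labelled wild type (horizontal) and labelled MTL-OX (vertical), with 1 point per member, coloured by its mean level, and the line of equal falls. BRADI3G52807 and BRADI5G04080 lie furthest below the line and BRADI3G04930 furthest above it, while most members lie near it.

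The genotype difference was not used by the rule, and most members shared its direction. Over both treatments, 31 of the 35 members had a higher mean log2 level in the libraries labelled MTL-OX, in which *LNJ* was at or near 0, than in those labelled wild type, in which it was abundant. Of all tested genes 35.6% had a difference above 0. The median difference was 0.47 for the members and −0.10 for all tested genes. After scaling by median ratios 31 members were still higher, with medians of 0.56 for the members and 0.01 for all tested genes.

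An unadjusted p below 0.05 in this direction was found for 17 of the 35 members (6.51% of all tested genes), and in the other direction for 0 (22.9% of all tested genes). The 17 include BRADI5G08410, which reached the minimum of 1 FPKM only through the libraries labelled MTL-OX, as described below. After adjustment over all tested genes 1 member was called, BRADI4G30380, against 28 genes called higher (0.188%) and 27 called lower (0.181%) in all. Its log2 difference was 1.28 (SE 0.17, adjusted p = 0.0483 from limma). Within each treatment the libraries of the labelled genotypes did not overlap for this gene. The call stands close to the threshold. With all 8 libraries it held without the mean-variance trend (adjusted p = 0.0486 from limma). It did not hold with a pseudocount of 0.1, without a filter on low values or after scaling (adjusted p = 0.052, 0.0723 and 0.0509 from limma). With 1 library left out it mostly did not hold, though each such fit has a group without a replicate. Over all these settings the log2 difference ranged from 1.13 to 1.84. The highest value came with the pseudocount of 0.1, which is another scale than log2(FPKM + 1).

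For 3 members, BRADI5G08410, BRADI1G22930 and BRADI5G01870, the libraries labelled wild type averaged 0.715, 0.905 and 0.983 FPKM, so they reached the minimum of 1 FPKM only through the libraries labelled MTL-OX and had to be higher there. When a mean of at least 1 FPKM was required in each labelled genotype, an alternative added after the data were seen, 28 of the 32 remaining members were higher where the label was MTL-OX (35.3% of 14413 genes). With this filter 6 genes were called in place of 55, and BRADI4G30380 was not among them (adjusted p = 0.0557 from limma).

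The next members did not pass. BRADI5G08410 had a log2 difference of 1.06 (SE 0.18, adjusted p = 0.0554 from limma), which the minimum level helped to select. BRADI1G42760 had one of 1.03 (SE 0.20, adjusted p = 0.0577) and BRADI1G49010 one of 0.89 (SE 0.18, adjusted p = 0.0578). BRADI3G04930 had the largest difference, 2.88 (SE 0.63, adjusted p = 0.0637), with the large spread described above. BRADI2G59001 and BRADI2G16280 had differences of 0.72 and 0.93 (SE 0.16 and 0.21, adjusted p = 0.0642 and 0.0652 from limma). The members with a negative difference were BRADI5G04080 (−0.68, SE 0.52), BRADI2G58470 (−0.34, SE 0.24), BRADI5G09420 (−0.33, SE 0.22) and BRADI5G18680 (−0.15, SE 0.13), and none of these passed.

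The counts of called genes depend on sample 6, a mock-treated library labelled MTL-OX. Without it that group has no replicate, as for any library left out, so only effect sizes are given in this paragraph. BRADI4G30380, BRADI2G16280, BRADI5G08410, BRADI1G42760 and BRADI3G04930, named after their values were seen, then had log2 differences of 1.36, 1.14, 1.18, 1.09 and 3.11. With all 8 libraries these were 1.28, 0.93, 1.06, 1.03 and 2.88. BRADI5G08410 was tested only through its level where the label was MTL-OX. The number of members with a positive difference stayed between 29 and 31 when any library was left out.

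**Figure D4:**
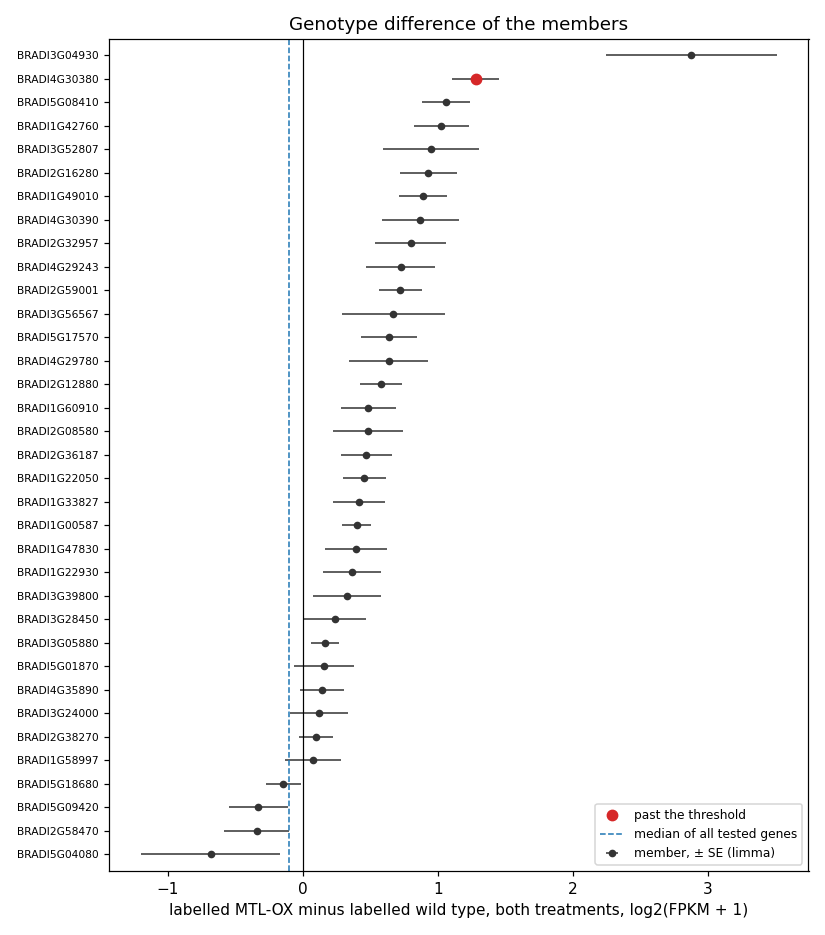
The difference between libraries labelled MTL-OX and labelled wild type over both treatments, on the log2(FPKM + 1) scale, for each member with its standard error from limma, and the median of all tested genes as a dashed line. Of the 35 points 31 lie above 0, and BRADI4G30380 is the 1 past the threshold.

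The direction was seen with and without MeJA. In mock-treated libraries both samples labelled MTL-OX lay above both labelled wild type for 17 members (9.06% of all tested genes) and below for 1 (43.3%), which was BRADI5G18680. After scaling by median ratios these numbers were 22 members (22.0%) and 0 members (21.6%). In MeJA-treated libraries they lay above for 20 members (24.7%) and below for 3 (30.8%), and after scaling for 21 (29.7%) and 3 (29.0%). In both treatments 10 members were above in unscaled FPKM (5.18%) and 15 after scaling (11.8%), and 1 (20.3%) and 0 (12.3%) were below. For 3 members, BRADI3G04930, BRADI4G30380 and BRADI5G08410, the mean after MeJA where the label was MTL-OX exceeded the mock mean where it was wild type. Of these, BRADI5G08410 reached the minimum of 1 FPKM only through the libraries labelled MTL-OX. The counts of members above, in each treatment and in both, hold this gene in unscaled FPKM and after scaling. BRADI1G22930 reached the minimum in the same way. It is held by the unscaled count in MeJA-treated libraries and by the scaled count in mock-treated ones.

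Tested separately, the genotype differences in mock-treated and in MeJA-treated libraries gave no call for a member with limma. An unadjusted p below 0.05 was found for 11 members in mock-treated libraries, all higher where the label was MTL-OX (2.88% of all tested genes), and for 0 members lower (18.3%). In MeJA-treated libraries it was found for 9 higher (6.59%) and 0 lower (10.4%). Both counts of members higher hold BRADI5G08410, which reached the minimum level only through the libraries labelled MTL-OX. Among all tested genes 6 and 5 were called higher (0.0402% and 0.0335%) and 6 and 3 lower (0.0402% and 0.0201%). The difference was above 0 for 30 of the 35 members in mock-treated libraries (26.5% of all tested genes) and for 27 in MeJA-treated ones (48.7%). Over the members the median log2 difference was 0.48 in mock-treated and 0.46 in MeJA-treated libraries, against −0.19 and −0.01 for all tested genes. With a mean of at least 1 FPKM in each labelled genotype, 27 of 32 members were higher in mock-treated libraries labelled MTL-OX (26.0% of 14413 genes). In MeJA-treated libraries 24 of 32 were higher with this filter (48.8%). These comparisons share the libraries that chose the members.

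Members were spread over the 5 chromosomes, with 9, 8, 7, 5 and 6 on chromosomes 1 to 5. Chromosome 5 held 17.1% of the members and 9.5% of the tested genes, a difference of a few genes. Few of the genes beside the members on the chromosome fell. Of the 68 tested genes directly next to a member that are not members themselves, 2 fell by the rule where the label was wild type (2.94% against 1.17% of all tested genes) and 0 where it was MTL-OX (0.0% against 0.905%). Their median log2 difference with MeJA was 0.06 and 0.15 in the libraries labelled wild type and MTL-OX, against 0.03 and 0.19 for all tested genes.

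The 2 neighbours that fell where the label was wild type are named here after their values were seen. BRADI1G58990, 384 bp from BRADI1G58997, had 6.95 and 7.73 FPKM in samples 1 and 2 and 2.05 and 2.94 FPKM in samples 3 and 4. Where the label was MTL-OX its treatments overlapped, with 8.45 and 4.39 FPKM in samples 5 and 6 and 5.64 and 2.51 FPKM in samples 7 and 8. BRADI5G04070, 59542 bp from BRADI5G04080, had 50.7 and 21.5 FPKM in samples 1 and 2, 15.2 and 17.7 FPKM in samples 3 and 4, 12.2 and 52.7 FPKM in samples 5 and 6, and 19.6 and 41.5 FPKM in samples 7 and 8. Its mock-treated replicates were ordered like those of BRADI5G04080 in both labelled genotypes, but it did not fall where the label was MTL-OX.

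**Figure D5:**
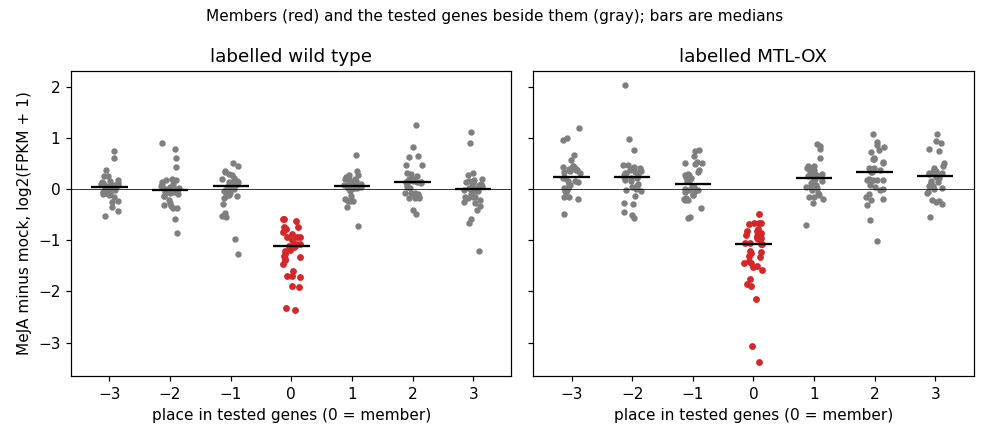
MeJA minus mock on the log2(FPKM + 1) scale for the members (red, place 0) and for the tested genes up to 3 places away on the chromosome (gray), in libraries labelled wild type (left) and labelled MTL-OX (right), with medians as bars. The members lie below 0, as the rule requires, and the medians of their neighbours lie near those of all tested genes.

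The limit of 2-fold has genes close to it on either side. Just inside it were BRADI5G18680 (2.14-fold and 2.01-fold in the libraries labelled wild type and MTL-OX), BRADI3G04930 (8.25-fold and 2.05-fold) and BRADI1G49010 (2.06-fold and 2.11-fold). Just outside were BRADI1G77230 (1.98-fold and 2.21-fold), BRADI1G63080 (2.38-fold and 1.93-fold) and BRADI4G32820 (2.82-fold and 1.90-fold), whose treatments did not overlap either. With a limit of 1.5-fold 81 genes, and with one of 3-fold 6 genes, met the rule.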

How the data were processed

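The authors sequenced TruSeq libraries as read pairs, aligned them with TopHat2 and estimated FPKM per gene with Cufflinks. The deposited tables hold FPKM with confidence bounds, 1 table per sample, of 27833 rows; 1 row without an identifier was left out and rows of the 2 repeated identifiers were summed. Library totals were not used here. Implied fragments are the square of 2 FPKM over the distance to the upper bound, and 82.7% to 84.0% of those below 20 were whole within 0.05. Groups follow the labels.

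Members were taken from unscaled FPKM. Genotype differences and the interaction were fitted with limma 3.58.1 (R 4.3.3, eBayes with trend) on log2(FPKM + 1), 1 mean per group, 8 libraries, 4 residual degrees of freedom, with Benjamini-Hochberg adjustment over 14922 genes, and the procedure was tested on simulated data. Fold changes on this scale understate those of low genes. p-values measure the spread between 2 samples per group.

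All members are named; those given library by library, and the genes beside them, were chosen after their values were seen. The members and lists were chosen with earlier results of these data known. Planned lists and leaf markers by product name, and promoter motifs, were not used here, because 0 BRADI identifiers matched the RefSeq table; the leaf label was thus not checked against markers. Alternatives were scaling, filters, pseudocount, fold limits, trend, a stricter p, a minimum in each labelled genotype (added after the data were seen), table-name genotypes and leaving out each library.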

Additional observations from a re-analysis of the deposited data

How the results depend on the processing

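The 35 members were all kept among 47 genes after scaling by median ratios. Looser rules took 89 genes without a filter on low values, 81 with a fold limit of 1.5 and 52 by the fold of the pair means alone. These looser rules keep every member by construction, so keeping them is not a check. A minimum of 10 implied fragments in 2 or more libraries removed none of the 35. A mean FPKM of at least 5 left 15 members and a fold limit of 3 left 6. With 1 library left out, 32 to 50 genes met the rule, and they shared 25 (without sample 5 or sample 8) to 34 genes with the members.

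Members higher in labelled MTL-OX without overlap numbered 21 to 25 in mock-treated (15.6% to 19.9% of all tested genes) and 22 to 25 in MeJA-treated libraries (30.7% to 47.5%) with 1 library left out, which can only raise such counts, and members lower 2 to 5 (54.6% to 61.9%) and 4 to 7 (37.1% to 50.7%). The counts of members higher hold BRADI5G08410, and those in MeJA-treated libraries also hold BRADI1G22930. With some libraries left out, BRADI1G22930 is also counted in mock-treated libraries, and BRADI5G01870 in either treatment. All of these genes reached the minimum level only through the libraries labelled MTL-OX. Scaling left 0 lower in mock-treated libraries. With the genotypes of the table names, 1 and 3 members were higher and 17 and 20 lower in mock- and MeJA-treated libraries, and the log2 differences printed above become −1.28 (BRADI4G30380), −1.06 (BRADI5G08410), −1.03 (BRADI1G42760), −0.89 (BRADI1G49010), −2.88 (BRADI3G04930), −0.72 (BRADI2G59001) and −0.93 (BRADI2G16280).

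Over both treatments the 55 called genes became 24 with a pseudocount of 0.1, 33 without a filter, 10 with a mean FPKM of at least 5, 4 at an adjusted p of at most 0.001, and 9 to 763 with 1 library left out. The 1 called member became 0 with each of these settings and after scaling, and 0 to 5 with 1 library left out (5 without sample 6, 0 without any other). In mock-treated libraries the 12 called genes became 3 with a mean FPKM of at least 5, 2 at the stricter p, and 5 to 676 with 1 library left out (676 without sample 6, which alone gave called members, 2 of them; 0 to 2 over all). In MeJA-treated libraries the 8 called genes became 2, 1, and 4 to 18. The 2 genes of the interaction became 0 with a pseudocount of 0.1, a mean FPKM of at least 5 or the stricter p, 7 without a filter, 5 without the trend, and 0 to 10 with 1 library left out. Members with a smaller fall where the label was MTL-OX numbered 19, 11 after scaling, and 14 to 22 with 1 library left out. With a mean of at least 1 FPKM in each labelled genotype (added after the data were seen) the called genes numbered 6 over both treatments, 1 in mock-treated libraries, 1 in MeJA-treated libraries and 0 for the interaction, with 0 members in each. The causes were not tested. No paired analysis was possible because the labels number the samples 1 to 8 and no group shares a number with another.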
